A study of Arabidopsis thaliana with 33 samples.

Results

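The 10 genes described here are superoxide dismutases and catalases of Arabidopsis thaliana, chosen by locus: the copper/zinc enzymes CSD1 (AT1G08830), CSD2 (AT2G28190) and CSD3 (AT5G18100), the iron enzymes FSD1 (AT4G25100), FSD2 (AT5G51100) and FSD3 (AT5G23310), the manganese enzyme MSD1 (AT3G10920), and the catalases CAT1 (AT1G20630), CAT2 (AT4G35090) and CAT3 (AT1G20620). All 10 were among the 27826 loci measured on Affymetrix AraGene arrays, 7 of them superoxide dismutases and 3 catalases. Rosette RNA came from plants in high light (HL), moved on day 25 from sowing to 550 μmol m-2 s-1, and from plants in low light (LL), which stayed at 100 μmol m-2 s-1. Rosettes of 3 natural accessions, Ga-0 and Ts-1 besides Col-0, were taken at 1 hr into the photoperiod in HL and in LL, Col-0 rosettes also at 3.5 hr on the same day and at 25 hr, which is 1 hr into the next photoperiod, and Col-0 rosettes in LL also at -23 hr, 1 hr into the photoperiod of the day before. This gives 11 groups of 3 arrays, 33 in all, with 3 rosettes pooled per sample, and all plants had grown at 100 μmol m-2 s-1 until the irradiance increase. The labels name no transgene or mutation. The authors report that temperature rose with the irradiance, so light and warmth cannot be told apart in HL against LL. A whole rosette mixes leaf ages and cell types, so more RNA per cell and more cells that hold an RNA cannot be told apart.

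Superoxide arises in leaves mainly where electrons from the photosynthetic chain reach oxygen. Superoxide dismutases convert it to hydrogen peroxide and oxygen, and catalases in the peroxisome break hydrogen peroxide down to water and oxygen. The dismutases are sorted by metal and by place: CSD1 acts in the cytosol, CSD2 in the chloroplast, CSD3 in the peroxisome, MSD1 in mitochondria, FSD1 in the chloroplast stroma and cytosol, and FSD2 and FSD3 together at the plastid nucleoids, where they are parts of the complex around the plastid-encoded RNA polymerase. CAT2 is the main leaf catalase and removes hydrogen peroxide made in photorespiration, and the transcripts of CAT2 and CAT3 are known to follow the circadian clock in different phases. Where copper is scarce, the transcription factor SPL7 activates FSD1 and the microRNA genes MIR398B and MIR398C, and miR398 acts against the transcripts of CSD1, CSD2 and their copper chaperone CCS.

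The deposited values are digits of the normalized signal that lost their decimal separators. The power of 10 of each gene was therefore unknown, and values are given below as relative signal, which can be compared between arrays for 1 gene and never between genes. Powers of 10 were chosen so that replicate arrays, and then groups, lay as near to each other as the digits allow, which means that a change beyond 3.16-fold would have been misread, also in direction. The 10 genes were placed alike under all 3 placing rules tried, and their highest array exceeded the lowest by 1.37-fold (MSD1) to 4.001-fold (CSD2). Over all loci, 98.9% were placed the same by the main rule and by 1 other rule. The placing of CCS and of the MIR398 loci was not checked singly. The tissue could not be checked by marker genes, because levels of different genes cannot be compared. Log2 values of all 33 arrays were fitted with limma, and a gene was called up- or down-regulated at a Benjamini-Hochberg adjusted p below 0.05 over all 27826 loci and a fold-change outside the range of 0.714 to 1.4. Shares of all loci are given for this call only. Counts of members at other limits have no such share beside them and are a description. Precision is limited by having 3 arrays a group, and the residual spread of single genes is given where it matters.

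At 1 hr in HL, none of the 10 genes was called in any accession. The count was 0 of 10 in Ga-0, where 2.23% of all loci were called, 0 of 10 in Ts-1 against 2.41% of all loci, and 0 of 10 in Col-0 against 2.83% of all loci. At an unadjusted p below 0.05 the counts were 3 in Ga-0, 3 in Ts-1 and 0 in Col-0. The share of all loci at this limit was not counted. The median change of the 10 genes on the log2 scale was 0.03 in Ga-0, 0.10 in Ts-1 and 0.03 in Col-0, beside 0.00, 0.00 and -0.02 for all loci. In Col-0 the later time-points did hold called members: 2 of 10 at 3.5 hr, where 7.71% of all loci were called, namely CAT2 up and CAT3 down, and 2 of 10 at 25 hr, where 5.04% of all loci were called, namely FSD2 and FSD3, both up. With 10 members, such counts move by a large share with every single gene, so the genes are read one by one. The median change of the 10 genes was -0.07 at 3.5 hr and 0.06 at 25 hr, against -0.01 and -0.01 for all loci.

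**Figure D1:**
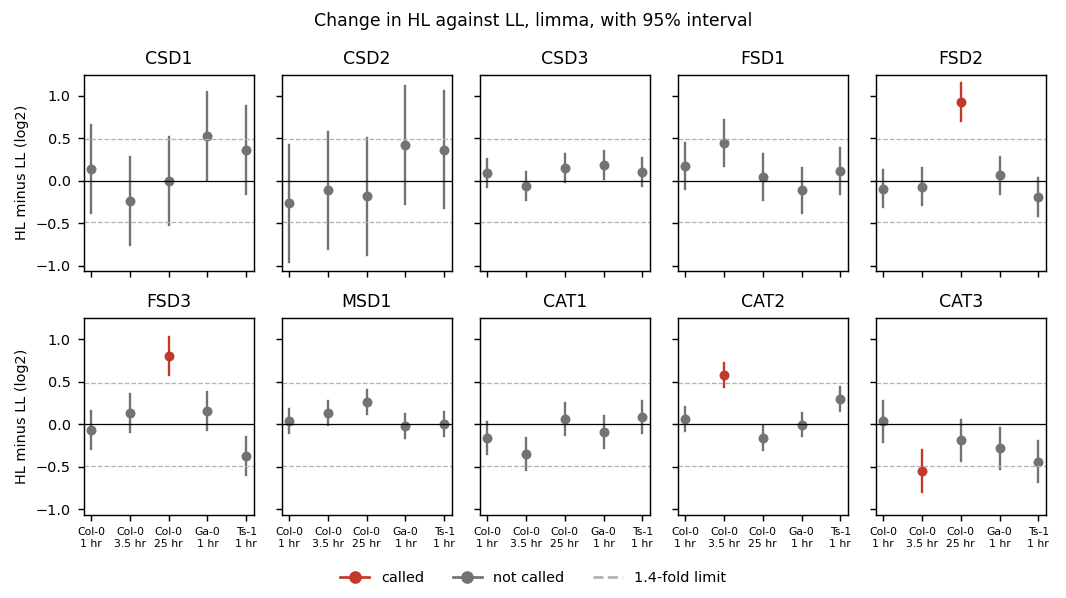
Change of each of the 10 genes in HL against LL (HL minus LL on the log2 scale, vertical axis) in the 5 comparisons on the horizontal axis, with 95% intervals from limma over 33 arrays and dashed lines at 1.4-fold. The 4 called changes are those of FSD2 (0.92) and FSD3 (0.80) in Col-0 at 25 hr and of CAT2 (0.58) and CAT3 (-0.55) in Col-0 at 3.5 hr, while the intervals of CSD1 and CSD2 are the widest of the 10 genes.

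FSD2, one of the nucleoid iron superoxide dismutases, was higher in Col-0 in HL at 25 hr than in any other group. Its relative signal was 2.04, 2.45 and 2.25 in the 3 HL samples at 25 hr, against 1.27, 1.12 and 1.15 in the 3 LL samples of that time-point. The groups did not overlap, and the lowest of these HL samples lay above all 30 other arrays, the highest of which had 1.42. The change was 1.90-fold, or 0.92 on the log2 scale (SE 0.11, limma adjusted p = 1.4e-07). At 1 hr FSD2 stood at 1.09 ± 0.035 in HL and 1.17 ± 0.14 in LL (SD, n = 3 each), and at 3.5 hr at 0.965 ± 0.083 in HL and 1.01 ± 0.037 in LL. Neither difference was past the threshold, with 95% intervals of -0.31 to 0.13 at 1 hr and -0.29 to 0.15 at 3.5 hr on the log2 scale.

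FSD3, which pairs with FSD2 at the nucleoids, was up-regulated at the same time-point. It had 16.02, 14.7 and 15.2 relative signal in HL at 25 hr, against 9.19, 9.35 and 7.89 in LL. Again the groups did not overlap, and these 3 HL samples were the highest of all 33 arrays, the next being 12.8 in an HL sample of 3.5 hr. The change was 1.74-fold, or 0.80 on the log2 scale (SE 0.11, limma adjusted p = 2.3e-06). At 3.5 hr FSD3 averaged 11.7 ± 1.0 in HL and 10.7 ± 0.68 in LL, and the difference of 0.13 (95% interval -0.10 to 0.35) was not past the threshold. Within HL alone, both genes were higher at 25 hr than at 1 hr, FSD2 by 1.04 (SE 0.11, limma adjusted p = 2.2e-08) and FSD3 by 0.83 (SE 0.11, limma adjusted p = 1.8e-06) on the log2 scale. They were the 2 of 10 genes called in this comparison, in which 3.88% of all loci were called.

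The difference between time-points was tested itself, as the change in HL against LL at one time-point minus that at another. Against 1 hr, the change at 25 hr was larger by 1.02 for FSD2 (SE 0.15, limma adjusted p = 4.4e-05) and by 0.87 for FSD3 (SE 0.15, limma adjusted p = 0.00046), 2 of 10 genes where 3.08% of all loci were called. Against 3.5 hr, it was larger by 1.00 for FSD2 (SE 0.15, limma adjusted p = 3.4e-05) and by 0.67 for FSD3 (SE 0.15, limma adjusted p = 0.0041). These comparisons share the samples at 25 hr. In LL, the differences of both genes between -23, 1 and 25 hr lay between -0.04 and 0.10 on the log2 scale.

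**Figure D2:**
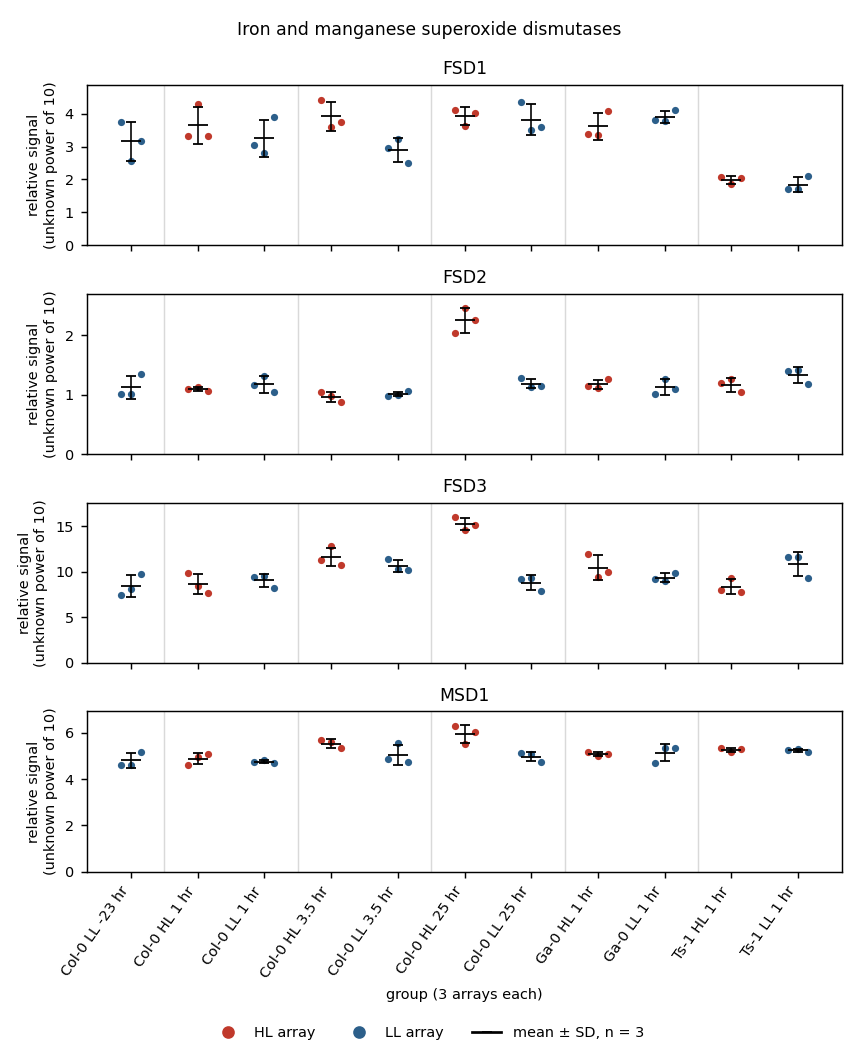
Relative signal of FSD1, FSD2, FSD3 and MSD1 (vertical axes, in units of an unknown power of 10 that differs between genes) in the 11 groups on the horizontal axis. Points are single arrays, red in HL and blue in LL, and black marks the mean ± SD (n = 3). The 3 Col-0 HL samples at 25 hr lie above all others in FSD2 (2.04 to 2.45) and FSD3 (14.7 to 16.02), and the 6 Ts-1 samples lie below all others in FSD1 (1.71 to 2.12).

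FSD1, the iron superoxide dismutase under SPL7 control, differed by accession and was not called in any HL against LL comparison. In Ts-1 it had 2.07, 1.86 and 2.05 relative signal in HL and 1.71, 1.71 and 2.12 in LL. All 6 Ts-1 samples lay below every array of the other accessions, the lowest of which had 2.49. In LL at 1 hr, Ga-0 samples had 3.81, 3.79 and 4.10 and Col-0 samples 3.06, 2.81 and 3.88. In LL, Ts-1 was 1.75-fold lower than Col-0, a log2 difference of -0.81 (SE 0.13, limma adjusted p = 2.2e-05). In HL the difference between Ts-1 and Col-0 was -0.86 (SE 0.13, limma adjusted p = 9.0e-06). Ga-0 exceeded Ts-1 by 2.12-fold in LL, or 1.08 on the log2 scale (SE 0.13, limma adjusted p = 2.0e-07). Whether the array probes match the Ts-1 and Ga-0 sequences as well as that of Col-0 was not tested, and this holds for every comparison of accessions.

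The largest difference of FSD1 between HL and LL was that of Col-0 at 3.5 hr. It had 4.43, 3.61 and 3.74 in HL, against 2.97, 3.22 and 2.49 in LL, so that the groups did not overlap. The change of 0.44 on the log2 scale (SE 0.13, limma adjusted p = 0.014) passed the p limit but, at 1.36-fold, stayed inside the fold limit. It was called without the second HL sample (0.50) or the second LL sample (0.52) of 3.5 hr. At 25 hr the groups overlapped, with 3.93 ± 0.26 in HL and 3.81 ± 0.47 in LL. The change at 25 hr minus that at 3.5 hr, -0.40 (SE 0.19, limma adjusted p = 0.21), was not called.

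MSD1, the mitochondrial manganese enzyme, varied least over the 33 arrays. At 25 hr it had 6.30, 5.50 and 6.04 in HL and 5.12, 5.08 and 4.73 in LL. All 3 HL samples lay above the LL samples, and the change of 0.26 on the log2 scale (SE 0.07, limma adjusted p = 0.0083), 1.19-fold, passed the p limit only. At 3.5 hr it averaged 5.53 ± 0.18 in HL and 5.04 ± 0.44 in LL (limma adjusted p = 0.19). Ordered by mean, the Col-0 HL groups of 25 hr (5.95) and 3.5 hr (5.53) came first, and the other 9 groups lay between 4.75 and 5.26.

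CAT2, the photorespiratory catalase, was up-regulated in HL at 3.5 hr in Col-0. It had 7.90, 7.89 and 7.35 relative signal in HL, against 5.04, 5.27 and 5.14 in LL. The groups did not overlap, and these 3 LL samples were the lowest of all 33 arrays. The change was 1.498-fold, or 0.58 on the log2 scale (SE 0.07, limma adjusted p = 8.5e-08). At 1 hr CAT2 averaged 8.62 ± 0.52 in HL and 8.24 ± 0.48 in LL, and at 25 hr 7.45 ± 0.37 in HL and 8.31 ± 0.46 in LL (limma adjusted p = 0.72 and 0.12). The change at 3.5 hr exceeded that at 1 hr by 0.52 (SE 0.10, limma adjusted p = 0.00039; 0.47 without the first HL and 0.48 without the third LL sample of 1 hr, both inside the fold limit), and the change at 25 hr was below that at 3.5 hr, with a difference of -0.74 (SE 0.10, limma adjusted p = 3.0e-06).

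CAT3, the catalase whose transcript is known to peak late in the day, moved the other way. It had 1.91, 1.64 and 1.93 in HL at 3.5 hr, against 2.78, 2.53 and 2.701 in LL. The groups did not overlap, and the 3 LL samples were the highest of all 33 arrays. The fold-change was 1.46-fold down, or -0.55 on the log2 scale (SE 0.12, limma adjusted p = 0.0007). Without the second HL replicate, whose value was the lowest of the 3, the change was -0.48 and lay inside the fold limit. The change at 3.5 hr minus that at 1 hr was -0.58 (SE 0.17, limma adjusted p = 0.021), a call that ended without the first LL sample of 1 hr (-0.45), the second HL sample (-0.51) or the first LL sample (-0.55) of 3.5 hr. CAT2 and CAT3 were the 2 of 10 genes called in that comparison, beside 6.35% of all loci. From 3.5 to 25 hr the difference in response was called for FSD2, FSD3 and CAT2, 3 of 10 genes beside 5.63% of all loci, and CAT3 had 0.36 (SE 0.17, limma adjusted p = 0.20).

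In LL itself both genes differed between these time-points. From 1 to 3.5 hr in LL, CAT2 was lower at 3.5 hr by 1.60-fold, with 5.15 ± 0.12 at 3.5 hr and 8.24 ± 0.48 at 1 hr (-0.68 on the log2 scale, SE 0.07, limma adjusted p = 4.5e-09). CAT3 was higher at 3.5 hr by 1.96-fold, with 2.67 ± 0.13 at 3.5 hr and 1.37 ± 0.21 at 1 hr (0.97 on the log2 scale, SE 0.12, limma adjusted p = 1.7e-07). CAT2 and CAT3 were the 2 of 10 genes called between these LL groups, beside 7.41% of all loci. In HL the same step was smaller for both genes: CAT2 changed by -0.16 (SE 0.07, limma adjusted p = 0.085) and CAT3 by 0.39 (SE 0.12, limma adjusted p = 0.013), neither past the fold limit. No member was called from 1 to 3.5 hr in HL, 0 of 10, where 11.8% of all loci were called. By adjusted p below 0.05 alone there were 4 of the 10, a limit without a share of all loci. The tests of the changes at 3.5 hr against those at 1 hr given above are the tests of the difference between these steps in HL and in LL.

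CAT1, which lies next to CAT3 on chromosome 1 in the TAIR10.1 annotation, had a lower mean in HL than in LL at 3.5 hr, as CAT3 did. It had 5.35, 5.25 and 4.90 in HL at 3.5 hr, against 6.75, 5.65 and 7.51 in LL. The groups did not overlap, and the change of -0.35 (SE 0.09, limma adjusted p = 0.005) stayed inside the fold limit. In LL it was higher at 3.5 hr than at 1 hr by 0.46 (SE 0.09, limma adjusted p = 0.00036), 1.37-fold, also inside the limit, and was called without the third LL sample of 1 hr (0.54) or the second of 3.5 hr (0.57). The sequences of the 3 catalases are alike, and signal shared between their probes was not tested.

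**Figure D3:**
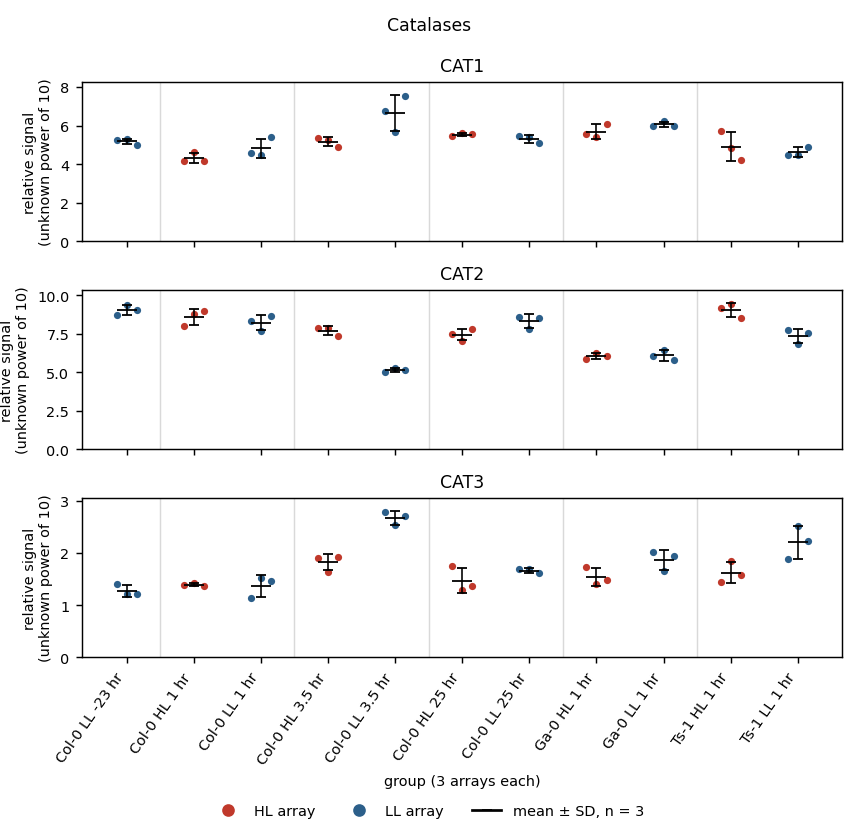
Relative signal of CAT1, CAT2 and CAT3 (vertical axes, in units of an unknown power of 10 that differs between genes) in the 11 groups on the horizontal axis. Points are single arrays, red in HL and blue in LL, and black marks the mean ± SD (n = 3). At 3.5 hr in Col-0, CAT2 averages 7.71 in HL and 5.15 in LL, and CAT3 averages 1.83 in HL and 2.67 in LL.

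Between days in LL no member was called. The counts were 0 of 10 at 1 against -23 hr, where 0.284% of all loci were called, 0 of 10 at 25 against 1 hr, where 0.0252% were called, and 0 of 10 at 25 against -23 hr, where 0.604% were called. At an unadjusted p below 0.05, limma had 0, 1 and 2 of the 10 genes in these comparisons, also without a share of all loci. The largest of these differences was that of CAT3, with 1.66 ± 0.047 at 25 hr and 1.27 ± 0.11 at -23 hr, or 0.39 on the log2 scale (limma adjusted p = 0.10).

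Accessions differed in the level of several members in LL at 1 hr. In Ts-1 against Col-0, FSD1 was lower and CAT3 was higher, 2 of 10 genes beside 7.47% of all loci. In Ga-0 against Col-0, CSD1 was lower, 1 of 10 genes beside 6.45% of all loci, and in Ga-0 against Ts-1, FSD1 was higher and CSD1 lower, 2 of 10 genes beside 5.44% of all loci. CAT3 had 1.88, 2.51 and 2.23 in Ts-1 in LL, against 1.13, 1.52 and 1.47 in Col-0, without overlap, and the difference was 1.61-fold, or 0.69 on the log2 scale (SE 0.12, limma adjusted p = 5.0e-05). In HL, Ts-1 had 1.44, 1.84 and 1.58 of CAT3 and Col-0 had 1.39, 1.42 and 1.37, a difference of 0.21 (SE 0.12, limma adjusted p = 0.24) that was not past the threshold.

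CAT2 was lower in Ga-0 than in Col-0 in both irradiances, and the difference crossed the fold limit in HL only. Ga-0 had 5.90, 6.29 and 6.07 in HL, against 8.03, 8.82 and 9.01 in Col-0, and 6.08, 6.45 and 5.79 in LL, against 8.35, 7.71 and 8.65 in Col-0. In neither irradiance did the accessions overlap. The difference was -0.50 in HL (SE 0.07, limma adjusted p = 1.6e-06, 1.42-fold lower in Ga-0) and -0.43 in LL (SE 0.07, limma adjusted p = 1.7e-05, 1.35-fold). In HL, CAT2 was the 1 of 10 genes called in Ga-0 against Col-0, beside 5.74% of all loci, and its call ended without the first Ga-0 HL replicate (-0.48), without the second (-0.48) or the third (-0.47) Col-0 HL replicate of 1 hr. FSD1 was the 1 of 10 genes called in Ts-1 against Col-0 in HL, beside 6.61% of all loci. CAT1 was higher in Ga-0 than in Col-0 by 0.40 in HL (limma adjusted p = 0.0021) and by 0.34 in LL (limma adjusted p = 0.0094), both inside the fold limit.

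The response to HL at 1 hr was not shown to differ between accessions for any member. The count was 0 of 10 in Ga-0 minus Col-0, where 0.205% of all loci were called, 0 of 10 in Ts-1 minus Col-0, where 0.597% were called, and 0 of 10 in Ga-0 minus Ts-1, where 0.298% were called. At an unadjusted p below 0.05 the limma counts were 0, 2 and 2, also without a share of all loci. In Ts-1, 3 members passed the p limit in HL against LL and stayed inside the fold limit. CAT2 had 9.16, 9.42 and 8.55 in HL, against 7.73, 6.84 and 7.56 in LL (0.30 on the log2 scale, SE 0.07, limma adjusted p = 0.0053). CAT3 had 1.44, 1.84 and 1.58 in HL, against 1.88, 2.51 and 2.23 in LL (-0.44, SE 0.12, limma adjusted p = 0.019). FSD3 had 7.99, 9.35 and 7.81 in HL, against 11.7, 11.6 and 9.36 in LL (-0.37, SE 0.11, limma adjusted p = 0.034). For these genes HL and LL samples of Ts-1 did not overlap. CAT3 was called without the second HL sample (-0.54) or the first LL sample (-0.55). The tests of Ts-1 minus Col-0 gave 0.23 for CAT2, -0.47 for CAT3 and -0.30 for FSD3 (limma adjusted p = 0.35, 0.24 and 0.48). In Ga-0 minus Ts-1 they gave -0.30 for CAT2, 0.16 for CAT3 and 0.52 for FSD3 (limma adjusted p = 0.27, 0.87 and 0.20), so the FSD3 difference was past 1.4-fold and was not called.

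The copper/zinc enzymes CSD1 and CSD2 stood apart by their spread between replicate samples. The residual SD on the log2 scale was 0.48 for CSD2 and 0.36 for CSD1, against a median of 0.11 over all loci, and only 33 and 154 of the 27826 loci had a larger one. The chaperone CCS (AT1G12520), which delivers copper to both, had 0.43, and 64 loci had a larger one. At the other end, CAT2 and MSD1 had 0.07 each, and CSD3, the peroxisomal copper/zinc enzyme, had 0.09.

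In the Ga-0 LL samples CSD2 had 3.95, 11.2 and 3.77 relative signal, CSD1 had 1.57, 3.83 and 1.52, and CCS had 0.677, 2.05 and 0.846. The second of these samples was the highest in all 3 genes, and the replicates spanned 2.96-fold in CSD2, 2.53-fold in CSD1 and 3.03-fold in CCS. In the Col-0 LL samples of 3.5 hr CSD2 had 7.54, 3.77 and 10.3, CSD1 had 3.98, 2.56 and 4.59, and CCS had 1.09, 0.809 and 1.71. Here the second sample was the lowest in all 3 genes. A span close to 3.16-fold is near the limit of what the placing of the digits can resolve.

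With this spread, neither gene was called in any HL against LL comparison. The 95% intervals on the log2 scale ran from -0.96 to 0.42 for CSD2 and from -0.38 to 0.66 for CSD1 in Col-0 at 1 hr, and from -0.88 to 0.50 for CSD2 and from -0.52 to 0.51 for CSD1 at 25 hr. Each of these intervals holds a change of 1.4-fold in at least 1 direction. In Ga-0, CSD1 was higher in HL by 0.53 (95% interval 0.01 to 1.04, limma adjusted p = 0.30), 1.44-fold. This estimate was past the fold limit but not the p limit, and the HL and LL samples overlapped. In LL, CSD1 was lower in Ga-0 than in Col-0, which had 2.87, 4.40 and 3.32, by -0.73 on the log2 scale (SE 0.25, limma adjusted p = 0.042), and lower than in Ts-1, which had 4.15, 3.73 and 3.77, by -0.89 (SE 0.25, limma adjusted p = 0.013). The Ga-0 samples overlapped the other accessions in both comparisons. Without the second Ga-0 LL sample the difference from Col-0 was -1.17, and the call against Col-0 ended without the first (-0.53) or the third (-0.50) Ga-0 LL sample, and also without the second (-0.56) or the third (-0.77) Col-0 LL sample of 1 hr. The call against Ts-1 ended without the first (-0.69) or the third (-0.66) Ga-0 LL sample. Both calls ended when the fit held the compared groups alone, and that against Col-0 also with robust eBayes. Without the second Ga-0 LL sample, CSD2 was called lower in Ga-0 than in Col-0 (-1.23) and than in Ts-1 (-1.26), and CSD1 was called higher in HL than in LL in Ga-0 (0.96).

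The deviations of CSD1, CSD2 and CCS from their group means ran together over the 33 samples, a pattern noticed after the values were seen. Pearson's r was 0.94 between CSD2 and CSD1 (Spearman's rho 0.93), 0.94 between CSD2 and CCS (rho 0.94) and 0.92 between CSD1 and CCS (rho 0.91). Each r and each rho had a two-sided permutation p of 1e-05, the smallest that 100000 permutations within groups can give. After Benjamini-Hochberg adjustment over the 64 pairs computed this was 0.00021, and 12 of the 64 pairs had an adjusted p below 0.05. The adjustment does not cover the choice of this pattern after the values were seen, so these p-values are a description and no test of it. Without the 2 samples farthest from the median of the first-named gene, r was 0.91 for CSD1 and CSD2, 0.92 for CSD2 and CCS and 0.88 for CSD1 and CCS. For CSD1 and CSD2, r was 0.85 in the 15 HL samples, 0.98 in the 18 LL samples, 0.96 in the 21 Col-0 samples and 0.92 in the 12 samples of Ga-0 and Ts-1. Among all 27826 loci, CCS and CSD1 ranked first and second by the size of r with CSD2.

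**Figure D4:**
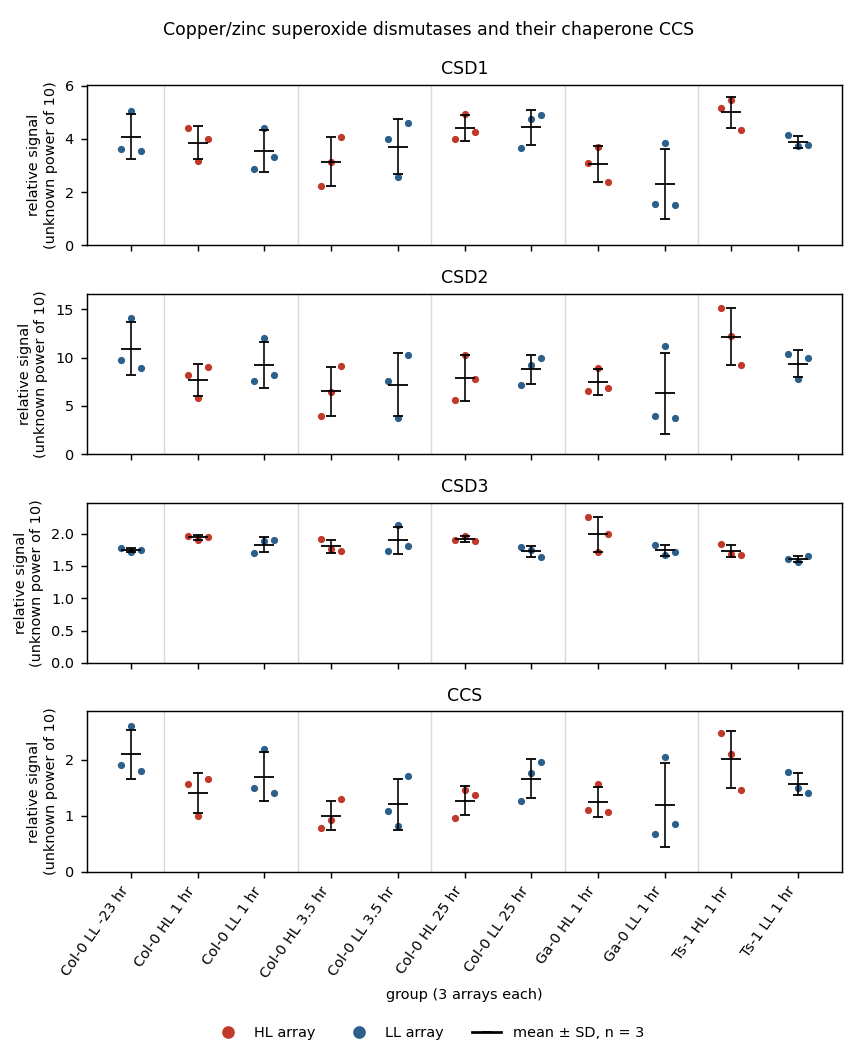
Relative signal of CSD1, CSD2, CSD3 and CCS (vertical axes, in units of an unknown power of 10 that differs between genes) in the 11 groups on the horizontal axis. Points are single arrays, red in HL and blue in LL, in the order of their replicate numbers, and black marks the mean ± SD (n = 3). In Ga-0 LL the second sample is the highest in CSD1 (3.83), CSD2 (11.2) and CCS (2.05).

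Of the 3 MIR398 loci on the array, MIR398B and MIR398C ran the other way within groups, while MIR398A (AT2G03445) had r = -0.09 with CSD2, -0.16 with CSD1 and -0.07 with CCS. The array reports the transcript of the microRNA locus and not the mature microRNA. MIR398C (AT5G14565) had r = -0.74 with CSD2 (rho -0.66, permutation p = 0.0011, adjusted p = 0.0075; -0.64 without the 2 samples farthest from the CSD2 median), -0.69 with CSD1 and -0.68 with CCS, and MIR398B (AT5G14545) had -0.62, -0.68 and -0.59 with the same genes. In the Ga-0 LL samples MIR398B had 5.48, 3.28 and 4.76 relative signal, lowest in the second sample, where CSD1, CSD2 and CCS were highest. FSD1, which SPL7 activates together with these microRNA genes, had -0.61 with CSD1 (rho -0.67, permutation p = 0.00016, adjusted p = 0.0020; -0.67 without the 2 samples farthest from the CSD1 median), -0.55 with CSD2 and -0.61 with CCS. Over the 12 samples of Ga-0 and Ts-1, FSD1 had -0.41 with CSD1 and -0.13 with CSD2. Ranked among all loci by the size of r with CSD2, MIR398C was number 12, MIR398B number 154 and FSD1 number 456. With CSD1, MIR398C was number 29, MIR398B number 30 and FSD1 number 144. Many other loci thus ran more closely with CSD2, in either direction, than MIR398B and FSD1 did. Other genes from the list of copper homeostasis read below ran both ways with CSD2. COPT2 had r = -0.53, ATX1 had -0.65 and CCH had -0.68. In the other direction PAA2 had 0.48, FRO4 0.35, PAA1 0.27, SPL7 itself 0.26 and FRO5 0.24. The rest of the list, besides the MIR398 loci, lay between -0.20 and 0.12. No permutation test was run for these genes. The value of r for MIR398C and CSD2 was -0.43 in the 15 HL samples and -0.87 in the 18 LL samples. These pairs too were chosen after the values were seen, so their permutation p-values are a description. In the TAIR10.1 annotation MIR398B overlaps the locus AT5G14550, which had r = -0.86 with CSD2, and MIR398C lies next to NRT2.7 (AT5G14570, a nitrate transporter gene), which had -0.79. Copper in the plants or in the nutrient solution was not among the measurements analysed here.

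**Figure D5:**
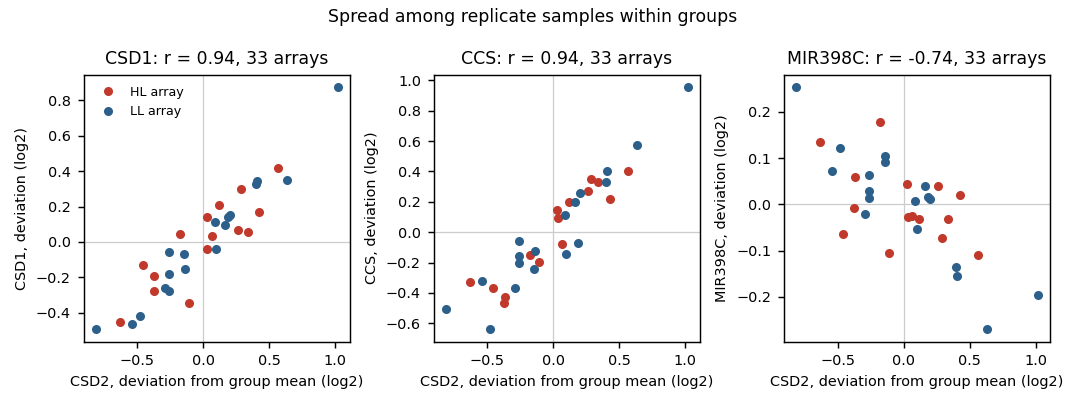
Deviation of single samples from their group mean on the log2 scale for CSD2 (horizontal axes) and for CSD1, CCS and MIR398C (vertical axes), over 33 arrays, red in HL and blue in LL. CSD1 and CCS run with CSD2 (r = 0.94 each), MIR398C runs against it (r = -0.74), and the sample farthest to the right is the second Ga-0 LL sample.

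CSD3 was steady throughout. Its group means lay between 1.61 in Ts-1 in LL and 1.99 in Ga-0 in HL, a span of 1.23-fold, and no comparison called it. At 25 hr it had 1.90, 1.97 and 1.88 in HL, against 1.80, 1.75 and 1.63 in LL, and though the samples did not overlap, the difference of 0.15 (SE 0.08, limma adjusted p = 0.23) was not past the threshold.

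Genes around these enzymes were read from 4 lists. Over all loci, the shares called in HL against LL were 2.41% in Ts-1, 2.23% in Ga-0 and, in Col-0, 2.83% at 1 hr, 7.71% at 3.5 hr and 5.04% at 25 hr. The lists are short, and their counts are given as a description. The first list holds 8 genes of the ascorbate peroxidase family, to which other main enzymes that remove hydrogen peroxide belong. Of these 8 genes, 1 was up-regulated in Ts-1 and 1 in Ga-0. In Col-0, 1 was up-regulated at 1 hr, 2 at 3.5 hr and 3 at 25 hr, and 0 were down-regulated in any of these comparisons. APX1, the cytosolic enzyme, was up in all 5 comparisons, by 0.67 in Ga-0, 0.69 in Ts-1 and, in Col-0, 0.55 at 1 hr, 0.75 at 3.5 hr and 0.59 at 25 hr on the log2 scale (limma adjusted p of 0.00035 or less in each). SAPX, the stromal enzyme, was up by 0.63 at 3.5 hr and 0.57 at 25 hr, and APX2 by 0.55 at 25 hr. The median of the 8 genes lay between -0.02 and 0.13 in the 5 comparisons.

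Of 16 genes of copper homeostasis, 0 were up-regulated in HL in any of the 5 comparisons, 1 was down-regulated in Ts-1, at 3.5 hr and at 25 hr each, and 0 in the other 2. These were MIR398B in Ts-1 (-0.70, SE 0.21, limma adjusted p = 0.040), PETE1, a plastocyanin gene, at 3.5 hr (-0.62, SE 0.09) and COPT1, a copper transporter gene, at 25 hr (-0.55, SE 0.10). In LL, 3 of the 16 genes were higher in Ts-1 than in Col-0, where 7.47% of all loci were called: MIR398B (0.73), the metal reductase gene FRO4 (0.72) and the copper transporter gene COPT2 (0.54). AT5G14550, which MIR398B overlaps, had 13.3, 13.1 and 11.2 relative signal in Ts-1 in LL. It had 8.15, 9.27 and 12.1 in Ts-1 in HL, and 9.21, 7.42 and 9.20 in Col-0 in LL at 1 hr. Whether MIR398B and AT5G14550 share array signal was not tested. Of 12 genes for peroxisomal sources of hydrogen peroxide and for catalase partners, 1 was called, NCA1, which is needed for catalase activity and was down-regulated at 3.5 hr (-0.58, SE 0.06), and GOX1, a glycolate oxidase gene, was lower at 3.5 than at 1 hr in LL (-0.60, SE 0.09), where 7.41% of all loci were called. CCS and AT3G56350, the 2 genes of the list of other dismutase-related loci, were not called in any of the 5 comparisons.

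For the 4 members called in HL against LL, the loci outside the members whose log2 group means were most like theirs over the 11 groups were found as a description. For FSD3 these were FLN1 (r = 0.96) and GYRA (r = 0.96), for FSD2 AT2G44040 (0.96) and AT5G02710 (0.95), for CAT2 SHW1 (0.95) and AT1G71810 (0.94), and for CAT3 GATL3 (0.96) and OZF2 (0.96). The groups share accession, time and irradiance, so these values rest on 11 points that are not independent. For FSD2 and FSD3 the points are set largely by the single group of Col-0 in HL at 25 hr.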

How the data were processed

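The labels give 11 groups with 3 AraGene arrays of rosette RNA each. The authors deposited 1 table of values normalized with RMA and summarised by locus. Per the file, each value is a string of up to 10 digits of the linear signal without decimal separator (another unit than the log2 values assumed when the tests were planned), so the unit, like a score, is known only up to a power of 10. Digits were read as mantissas: arrays of a group were set closest together, LL groups closest to Col-0 LL at 1 hr, and HL groups closest to their LL group. The fit used limma 3.58.1 under R 4.3.3 on log2 values (1 mean per group, 33 arrays, eBayes without trend; 22 residual and 8.37 prior degrees of freedom), with Benjamini-Hochberg adjustment over 27826 loci within each contrast. Placing and correlations used Python 3.11.15 (scipy 1.17.1, numpy 2.4.6, pandas 2.3.3). Placing and fit were tested on simulated data. Gene names follow TAIR10.1 of RefSeq, in which 27241 loci and all 10 genes were found. Alternatives were no p adjustment, other fold limits, treat, robust eBayes, changes to the arrays fitted, a replicate block, median centring, other placing rules and leaving out each array. Quantile normalization and filters on dim loci need levels and were not run. Named are all 10 genes, up to 2 called rises and falls per list and comparison, and the 2 most alike loci. Named after their values were seen were APX2, COPT2, CCH, ATX1, PAA1, PAA2, SPL7, FRO5, the chaperone and microRNA loci and the neighbours of the microRNA loci. The same holds for the polymerase-associated genes. The members and lists were chosen with earlier results of these data known. The comparisons within HL and the correlations within groups were added after the values were seen. No sequences are shown. Whole rosettes were pooled, so samples shared no plants, and the labels do not say whether replicate numbers mark another pairing.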

Additional observations from a re-analysis of the deposited data

Results flagged for a closer look

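For FSD2, FSD3, CAT2 and CAT3, 7 results differed between time-points by a test of the difference itself, the change in HL against LL at one time-point minus that at another in Col-0 (limma, adjusted over 27826 loci). For FSD2 the response at 25 hr was larger than at 1 hr by 1.02 and than at 3.5 hr by 1.00 on the log2 scale, and for FSD3 by 0.87 and 0.67. For CAT2 the response at 3.5 hr was larger than at 1 hr by 0.52, and the response at 25 hr minus that at 3.5 hr was -0.74. For CAT3 the response at 3.5 hr minus that at 1 hr was -0.58. Leaving out 1 array ended 2 of the 7 calls: that of CAT2 at 3.5 against 1 hr without the first Col-0 HL or the third Col-0 LL replicate of 1 hr (0.47 and 0.48), and that of CAT3 without the first Col-0 LL replicate of 1 hr, or the second Col-0 HL or the first Col-0 LL replicate of 3.5 hr (-0.45, -0.51 and -0.55). No response differed between accessions past the thresholds. Groups of 3 samples were too small for a search for single outlying samples.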

How the results depend on the processing

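Counts of called members kept their value with arrays centred on their median, under both other placing rules, with robust eBayes and with the replicate block, which gave 2 at 3.5 hr, 2 at 25 hr and 4 for the response between time-points and changed no call. The labels do not say whether same-numbered samples belong together. The 15 correlations between deviations of same-numbered samples ran from -0.10 to 0.25, and 7 were over 0.1, which cannot decide it. With only the compared groups fitted, 2 members differed between accessions in LL in place of 3. Without a fold limit the count was 4 in Col-0 at 3.5 hr, 3 at 25 hr, 3 in Ts-1 and 5 between accessions in LL. It was 3 for 3.5 against 1 hr in LL and 4 for the response at 25 minus that at 3.5 hr. The shares of all loci without a fold limit were not counted. Without p adjustment, 4 further results of single genes were called. Of these, 1 was in Ga-0 (CSD1) and 1, FSD3 in Ga-0 minus Ts-1, was for the response between accessions. The others were those of CSD2 in LL, in Ga-0 against Col-0 and against Ts-1. With limits of 1.4 and -0.7 on the log2 scale, 0 were called at 3.5 hr, at 25 hr and between 3.5 and 1 hr in LL, and 1 for the response between time-points. With treat against 1.4-fold, 0 were called at 3.5 hr and for the response between time-points, and 1 each at 25 hr, between 3.5 and 1 hr in LL and between accessions in LL. Leaving out 1 array gave 3 to 5 for the response between time-points, 2 to 4 for accessions in LL, 2 to 3 in Col-0 at 3.5 hr and for 3.5 against 1 hr in LL, 0 to 1 in Ga-0 and in Ts-1, 2 to 2 at 25 hr, and 0 to 0 in Col-0 at 1 hr, between days in LL and for the response between accessions. No called change reversed in any of these alternatives. The arrays give no signal over background, so dim loci could not be told from others.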

Other observations

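FSD2 and FSD3 are 2 of the 12 proteins attached to the plastid-encoded RNA polymerase, and FLN1, the locus most like FSD3, is another. The list of the 10 others was therefore written after these values were seen, and its counts are a description without a test of the list. In Col-0 at 25 hr, 5 of the 10 were up-regulated in HL and 0 down-regulated, where 5.04% of all loci were called in either direction: FLN1 (1.29 on the log2 scale, SE 0.12), PTAC10 (0.98, SE 0.12), PTAC12 (0.92, SE 0.09), PTAC14 (0.78, SE 0.09) and TRX z (0.68, SE 0.09). The other 5 had changes between 0.12 and 0.46, of which PTAC3, MURE and PTAC7 had an adjusted p below 0.05 and lay inside the fold limit. None of the 10 was called at 1 or 3.5 hr in Col-0 or at 1 hr in Ga-0 or Ts-1, and their medians there were -0.17, -0.04, 0.01 and -0.27. Some passed the p limit inside the fold limit. In Col-0 these were PTAC6 (-0.31) at 1 hr and PTAC3 (-0.39) and FLN1 (0.38) at 3.5 hr. In Ts-1 they were PTAC3 (-0.31) and MURE (-0.31). At 1 hr in Col-0 all 10 changes lay between -0.31 and -0.10, and the differences from 1 hr given next include these lower values. Tested as a difference between time-points, the response at 25 hr was larger than at 1 hr in 8 of the 10 genes, where 3.08% of all loci were called in either direction, and than at 3.5 hr in 6 of the 10, where 5.63% were. FLN1, whose likeness to FSD3 led to the list, is 1 of the 10.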
